A study of Homo sapiens with 12 samples.

Results

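The 10 keratin genes KRT7, KRT8, KRT10, KRT13, KRT15, KRT18, KRT19, KRT20, KRT23 and KRT80 were followed in 12 RNA-seq libraries of colon cancer cells. They were chosen by name, with earlier results of these data known, as the keratin family members to describe, from 60617 gene identifiers in all. Their 44 other family members are summarised further on. The parental line, HCT 116p53-/-, derives from a human colon carcinoma and has both copies of p53 deleted. Its derivative uL3ΔHCT 116p53-/- is labelled as a knockout of RPL3, which encodes ribosomal protein uL3. The paper describes that sub-line as stably silenced of uL3, and both lines lack p53. Each line was given Actinomycin D (Act D, an inhibitor of rRNA transcription) at 5 nM for 24 h or vehicle, with 3 libraries in each of the 4 groups. The labels call the 3 libraries biological replicates but do not say whether they came from separate cultures, so that p-values measure the spread between these libraries. Each comparison of lines sets 1 cell line against 1 sub-line. The labelled loss of uL3 therefore cannot be told apart from any other difference between them.

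Keratins are the intermediate filament proteins of epithelial cells. A filament is built from pairs of an acidic type I keratin and a basic type II keratin, and neither type forms filaments alone. KRT8 (type II) and KRT18 (type I) are the first pair expressed in simple epithelia such as that of the colon, where KRT19 and KRT20, both type I, are further partners and KRT20 marks differentiated enterocytes. KRT7 (type II) is typical of ductal and glandular epithelia and is usually scarce in the colon. KRT10, KRT13 and KRT15 are type I keratins of stratified epithelia, KRT10 of the upper epidermis, KRT13 of mucosal linings such as the oesophagus and KRT15 of basal cells. KRT23 is a type I keratin and KRT80 a type II keratin with less defined roles.

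The libraries held between 10087880 and 21138861 rounded expected counts, and levels are given as counts-per-million (CPM) on TMM-scaled library sizes, on which 3 counts correspond to 0.15 to 0.348 CPM. The RPL3 transcript was not lower in the libraries labelled uL3Δ, where its mean was 1242 CPM ± 82.5 (SD, n = 3) with vehicle against 1138 ± 15.3 in the parental line (log2 fold change 0.13, SE 0.08, edgeR quasi-likelihood test, as throughout, Benjamini-Hochberg adjusted p = 0.155). The group names below are therefore those of the labels. Of the colon epithelial marker list, 7 of 9 tested genes were lower and 1 was higher in the uL3Δ line without Act D, where 36.2% of all genes tested were lower and 35.1% higher. The summed level of the 14 listed genes was 98.2 to 103 CPM there and 397 to 430 CPM in the parental line. Of 12 mesenchymal markers 8 were tested, 7 higher and 1 lower, and they summed to 2803 to 2884 CPM against 89.0 to 102 CPM. Most of the higher sum was VIM, at a mean of 2237 CPM. The 7 haematopoietic and endothelial markers summed to at most 2.55 CPM in any library. These marker levels moved with every comparison of lines below, and their part in the keratin differences was not tested.

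KRT8 and KRT18 have by far the most pseudogenes of the 10 genes, so the certainty of their counts was examined before their values. GENCODE lists 51 pseudogenes of KRT8, 35 of them with any count here, and 67 of KRT18, 49 of them with counts. KRT19 has 5, of which 1 had counts, and none was listed for the 7 other genes. Over the 50 KRT8 copies and 66 KRT18 copies that aligned to at least 500 bases of the parent's coding sequence, the median identity was 91.3% for both, with ranges of 80.9% to 97.1% and 82.0% to 95.9%. The KRT8 copies with the most counts over the 12 libraries were KRT8P12 (chr3:160565447-160569248, plus strand), with 286 counts and 90.5% identity over 1385 aligned bases, KRT8P46 (chr4:102728746-102730171, minus strand), with 242 counts and 91.7% over 1423, and KRT8P39 (chr12:68705634-68707066, plus strand), with 102 counts and 90.7% over 1432. Those of KRT18 were KRT18P40 (chr19:20961057-20965140, plus strand), with 191 counts and 89.5% over 1212, KRT18P31 (chr5:36885206-36886497, plus strand), with 111 counts and 90.6% over 1287, and KRT18P55 (chr17:28275986-28307382, minus strand), with 68.0 counts and 91.3% over 1277. Coordinates are on hg38 from GENCODE v44.

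Short exact matches to other genes were frequent in the transcripts of both genes and became rarer with length. Of all windows of 50 bases in the KRT18 transcript, 52.8% also occurred in a transcript of another gene on either strand, against 28.4% of windows of 75 bases and 18.5% of windows of 100 bases. For KRT8 the shares were 37.1%, 17.8% and 6.73%. KRT13 followed with 18.2% of 50-base windows and KRT7 with 11.7%, KRT23 had 6.69%, and each of the others had at most 1.79%. Both ends of each fragment were sequenced, so a fragment is placed by more bases than such a window holds.

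**Figure D1:**
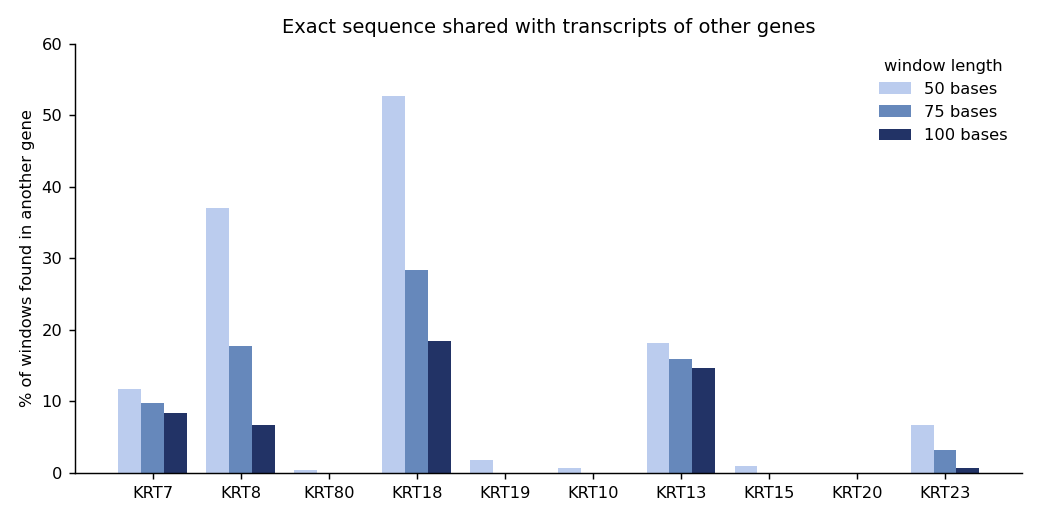
Percentage of all windows of 50, 75 or 100 bases in one transcript of each keratin gene that occur exactly, on either strand, in a transcript of another annotated gene. KRT18 (52.8%) and KRT8 (37.1%) have the highest bars at 50 bases, and KRT20 shares no window of any of the 3 lengths.

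The posterior standard deviation that RSEM gives for each count was small for both genes. In the 11 libraries with per-gene values it was between 0.65 and 2.14 counts for KRT8, at most 0.0136% of the count, and between 0.04 and 0.62 counts for KRT18, at most 0.00623%. For comparison it was 16.9 to 63.5 counts for RPL3. The other members had at most 0.7 counts. This measure covers only how reads were divided between genes and does not include the spread between libraries. In the 1 library with per-transcript values, which has no per-gene value, the posterior standard deviation was 57.7 counts of 16951 for the KRT8 transcript ENST00000293308 and 32.6 of 8945 for the KRT18 transcript ENST00000388835.

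Few counts were assigned to the pseudogenes. Those of KRT8 summed to 60.01 to 72.01 counts per library in the parental line with vehicle, 0.348% to 0.387% of their sum with KRT8, and to 94.01 to 141 counts, 0.861% to 1.05%, in the other line with vehicle. After Act D the shares were 0.291% to 0.376% and 0.657% to 0.842%. Those of KRT18 summed with vehicle to 0.492% to 0.656% and 0.426% to 0.586% of their sum with KRT18, and with Act D to 0.365% to 0.634% and 0.329% to 0.460%. When each gene was summed with its pseudogenes before the fit, no keratin gained or lost its call in any comparison.

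Levels were compared between genes per transcript length, as transcripts-per-million (TPM). In the parental line with vehicle, KRT8 was the highest at 487 TPM ± 2.01 (SD, n = 3), followed by KRT19 at 372 ± 4.69 and KRT18 at 362 ± 26.5. KRT19 and KRT18 overlapped between libraries and cannot be ordered. The next gene was far below these 3. KRT15 stood at 15.9 TPM ± 2.25 and KRT10 at 15.1 ± 3.79, which overlapped, and KRT13 at 6.92 ± 1.19. KRT7, KRT23 and KRT80 lay between 1.63 and 3.57 TPM, each overlapping the next in that order. KRT20, the enterocyte keratin, was lowest at 0.43 TPM ± 0.108. In the libraries labelled uL3Δ with vehicle, KRT18 was first at 355 TPM ± 32.7, followed by KRT8 at 242 ± 35.5 and KRT7 at 72.6 ± 13.2, with no overlap between these neighbours. KRT19 followed at 15.9 TPM ± 1.95, and KRT10, KRT80 and KRT15 at 6.59, 2.29 and 0.607 TPM. KRT23 and KRT20 were at 0.05 TPM or less and overlapped, and KRT13 was listed at 0. The 10 genes, chosen with earlier results known, held between 99.5% and 99.9% of all keratin TPM in every library, so the other family members added little.

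Per-length values rest on how RSEM divided reads between transcripts, and this is known for 1 library, replicate 2 of the parental line with vehicle. There 98.2% of KRT8 TPM, 99.0% of KRT18 TPM and 98.8% of KRT19 TPM lay in 1 full-length coding transcript, and KRT20 had 1 transcript with counts. KRT80 was divided between 2 coding transcripts at 48.6% and 51.4%. For KRT10, 88.6% of TPM lay in a transcript listed at 583 bases, which raises its TPM relative to its counts. Of KRT7 only 3.09% lay in the full-length transcript ENST00000331817, and 44.4% lay in a fragment of 329 bases. By counts the full-length transcript held 13.2%, of 42 KRT7 counts in that library. The division is not known for the other libraries.

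The comparison of lines with vehicle asked how keratin expression differed between the parental line and the libraries labelled uL3Δ. All 10 genes were called at an adjusted p under 0.05, with 3 of them higher in the libraries labelled uL3Δ than in the parental line and 7 lower. Over all 15692 genes tested, 71.3% were called, 35.1% higher and 36.2% lower, and 72.5% had groups that do not overlap, as all 10 keratins did. The median log2 fold change was -2.24 for the keratins, also with KRT13 set to its bound, and -0.02 for all genes tested. With Act D in both lines, 9 keratins were called, 3 higher and 6 lower, against 70.4% of all genes tested (35.1% higher and 35.3% lower), and the groups did not overlap for 9 keratins and 74.1% of all genes. There the median was -2.33 for the keratins, or -1.06 with KRT20 at its bound, and -0.02 for all genes. KRT13, KRT20 and KRT23 had at most 3 counts over a group in the libraries labelled uL3Δ. They could pass the filter on low counts only through the parental line, where they were higher. Their direction therefore adds no support to the counts of lower keratins or to these medians. In bulk RNA, fewer cells with a transcript and less of it per cell cannot be told apart.

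**Figure D2:**
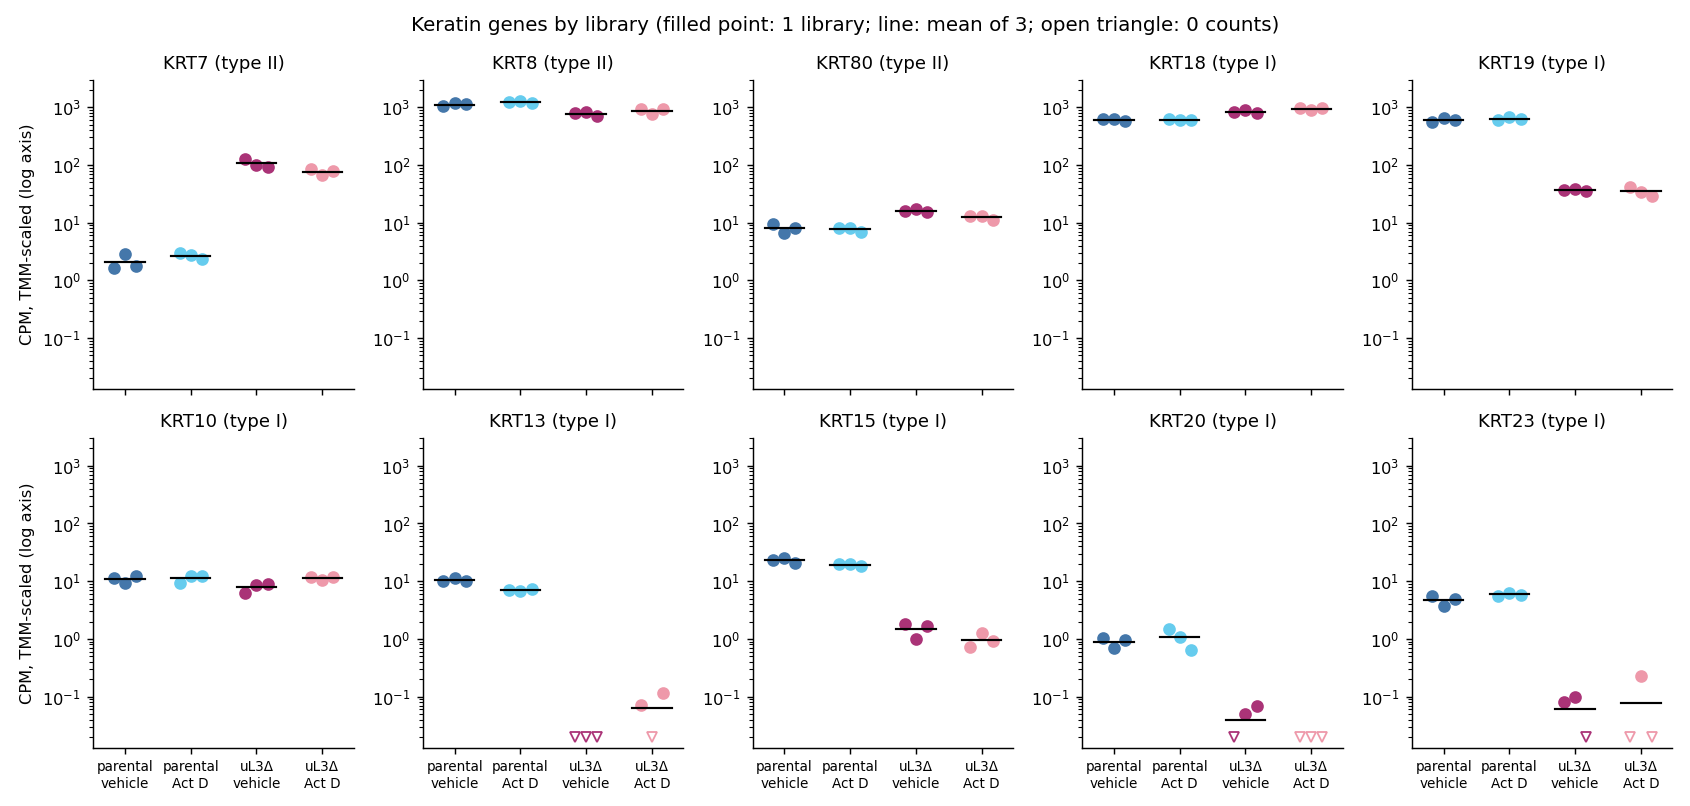
CPM on TMM-scaled library sizes (log axis) of each keratin gene in 12 libraries, by line and treatment. Filled points are single libraries, lines are means of 3, and open triangles at the foot mark libraries with 0 counts. KRT7 rises from 2.09 to 106 CPM between the lines with vehicle, while KRT19 falls from 609 to 36.6 CPM.

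Among the type II keratins, KRT7 had the largest difference. Its levels in the parental libraries with vehicle were 1.62, 2.89 and 1.75 CPM, from 25, 42 and 29 counts. In the libraries labelled uL3Δ they were 125, 101 and 92.7 CPM, so the groups were far apart. The log2 fold change was 5.67 (SE 0.18, adjusted p = 9.79e-15), a 51.0-fold difference. In TPM the log2 ratio was 4.35, or 3.66 with Act D, on a scale where the median gene had ratios of -0.46 and -0.47. With vehicle the means were 2.09 CPM and 3.57 TPM in the parental line, against 106 CPM and 72.6 TPM. With Act D the levels were 2.99, 2.70 and 2.33 CPM against 84.8, 67.8 and 77.9 CPM, a log2 fold change of 4.83 (SE 0.17, adjusted p = 7.78e-14). The parental level was 1.97% of the other line's with vehicle and 3.48% with Act D. For comparison, 6 genes chosen earlier for being high in the libraries labelled uL3Δ (ADAMTS9, FOXA2, TFF1, STC1, TGFBI and FABP4) stood in the parental line at 0 to 0.413% of the other line with vehicle and at 0.548% to 1.07% with Act D. KRT7 overlaps KRT86 on its own strand and the noncoding KRT7-AS on the other. KRT86 had at most 30.7 counts and KRT7-AS at most 4 in any library.

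KRT8 was the most abundant keratin of the parental line and was lower in the other. With vehicle its levels were 1047, 1182 and 1119.8 CPM in the parental line and 804, 813 and 714 CPM in the libraries labelled uL3Δ. The groups did not overlap, and the log2 fold change was -0.52 (SE 0.09, adjusted p = 5.18e-05). With Act D the levels were 1258, 1259.8 and 1194 CPM against 936, 767 and 931 CPM (log2 fold change -0.49, SE 0.09, adjusted p = 9.71e-05). The log2 ratio in TPM was -1.01 with vehicle, without overlap, where the median gene had -0.46. KRT8 (chr12:52897187-52949954, minus strand) overlaps KRT18 (chr12:52948871-52952906, plus strand) over 1084 bases of annotation. Whether counting used strand is not stated. The KRT8 transcript that held 98.7% of the gene's counts in the 1 library with per-transcript values starts at position 52906618, outside that stretch.

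KRT80 was 2.00-fold higher in the libraries labelled uL3Δ with vehicle. Its levels were 9.33, 6.75 and 8.03 CPM in the parental line against 16.1, 16.96 and 15.2 CPM (log2 fold change 1.00, SE 0.14, adjusted p = 3.4e-06). With Act D they were 8.16, 8.05 and 6.92 CPM against 13.3, 12.9 and 11.1 CPM (log2 fold change 0.69, SE 0.14, adjusted p = 0.000348). In TPM the log2 ratios were 0.49 with vehicle and 0.17 with Act D, where the median gene had -0.46 and -0.47. The 2 Act D groups overlapped in TPM.

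Among the type I keratins, KRT18 was the only one called higher in the libraries labelled uL3Δ. Its levels with vehicle were 616, 622 and 576 CPM in the parental line and 817, 899 and 804 CPM in the other, a log2 fold change of 0.47 (SE 0.08, adjusted p = 2.28e-05). This direction depended on the scale. In TPM the means were 362 and 355, and the log2 ratio was -0.03 with overlapping groups, where the median gene had a ratio of -0.46. With Act D the levels were 620.0, 609 and 602 CPM against 964, 893 and 984 CPM (log2 fold change 0.63, SE 0.08, adjusted p = 8.1e-07), and the TPM ratio was 0.12 with overlapping groups. In TPM KRT18 was thus level between the lines with vehicle while the median gene was lower, and on TMM-scaled counts the median gene was level and KRT18 higher. The noncoding RN7SL1 took between 12.4% and 19.8% of all TPM per library.

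KRT19, a partner of KRT8 without the tail domain of other keratins, fell from the level of KRT18 to a small part of it. With vehicle its levels were 564, 652 and 609.9 CPM in the parental line and 36.1, 38.3 and 35.2 CPM in the libraries labelled uL3Δ. The 16.6-fold difference (log2 fold change -4.06, SE 0.12, adjusted p = 4.21e-15) was far larger than the spread within either group. With Act D the levels were 594, 672 and 621 CPM against 41.7, 34.3 and 28.6 CPM (log2 fold change -4.16, SE 0.12, adjusted p = 5.14e-15).

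KRT15 and KRT13 lie beside KRT19 on chromosome 17, with 1087 bases between KRT15 and KRT19 and 8039 between KRT13 and KRT15, and were lower as well. KRT15 was at 23.7, 24.9 and 20.5 CPM in the parental line with vehicle and at 1.85, 1.00 and 1.69 CPM in the libraries labelled uL3Δ (log2 fold change -3.97, SE 0.19, adjusted p = 1.98e-12). With Act D its levels were 19.5, 20.1 and 18.1 CPM against 0.727, 1.26 and 0.928 CPM (log2 fold change -4.35, SE 0.22, adjusted p = 7.35e-12), and in TPM the log2 ratios were -4.71 and -5.08. KRT13 had 158, 166 and 169 counts in the parental line with vehicle, or 10.2, 11.4 and 10.2 CPM, and 0 in each library labelled uL3Δ. Set against a floor of 3 counts per library (0.241 CPM in the smallest), it was at least 44.1-fold lower (adjusted p = 9.93e-12). With Act D it had 113, 98 and 91 counts against 1, 0 and 1, a ratio of 109 with a 95% counting interval of 29.8 to 901 (adjusted p = 4.1e-10). KRT13 then stood at 0.899% of the parental level, beside 0.869% for KDF1 and 0.273% for BSPRY, 2 genes of the parental line that had 0 counts in the other line with vehicle. With Act D the mean was 0.149 CPM for KDF1 and 0.0242 CPM for BSPRY, where 3 counts correspond to 0.218 to 0.348 CPM. Both were chosen from earlier results of these data, so they are no independent reference. A further gene chosen earlier as high in the parental line, MYC, stood in the other line at 3.97% of the parental level with vehicle and 5.09% with Act D, where KRT19 stood at 6.01% and 5.55%, KRT15 at 6.58% and 5.05% and KRT23 at 1.27% and 1.29%. Exact intervals and floors cover counting error only.

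KRT23 and KRT20 were low in both lines and nearly without counts in one. KRT23 had 85, 55 and 81 counts in the parental line with vehicle against 1, 2 and 0, a ratio of 74.8 with an interval of 25.3 to 366 (adjusted p = 5.33e-09). With Act D it had 90, 93 and 73 counts against 0, 2 and 0, a ratio of 92.1 with an interval of 25.2 to 764 (adjusted p = 9.8e-09). KRT20 had 16, 10 and 16 counts against 0, 1 and 1, a ratio of 21.3 with an interval of 5.55 to 182 (adjusted p = 7.04e-05). With Act D it had 24, 16 and 8 counts in the parental line and 0 in each library labelled uL3Δ, at least 3.09-fold lower over a floor of 0.348 CPM (adjusted p = 2.77e-05). At these counts the size of the KRT20 difference is poorly known, and the parental level itself, between 0.643 and 1.49 CPM, was a small part of that of KRT19.

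KRT10 was called between the lines with vehicle but not with Act D. Its levels with vehicle were 11.5, 9.23 and 12.1 CPM in the parental line and 6.27, 8.51 and 8.78 CPM in the libraries labelled uL3Δ, groups that were close but did not overlap (log2 fold change -0.47, SE 0.16, adjusted p = 0.0126). In TPM the log2 ratio was -1.19, also without overlap, where the median gene had -0.46. The call was lost without replicate 3 of the parental line with vehicle (adjusted p = 0.0573) and without replicate 1 of the libraries labelled uL3Δ with vehicle (adjusted p = 0.0612). With Act D the levels were 9.47, 12.4 and 12.1 CPM against 11.6, 10.6 and 11.8 CPM and overlapped (log2 fold change 0.01, SE 0.16, adjusted p = 0.96). The TPM ratio was then -0.42 without overlap, where the median gene had -0.47. KRT10 is overlapped on the opposite strand by KRT10-AS1, which had 58.0 to 191 counts per library beside 78 to 201 for KRT10. In the 11 libraries with per-gene values the posterior standard deviation of the KRT10 count was at most 0.39 counts, or 0.213%. It covers how RSEM divided reads between genes. Whether counting used strand is not stated.

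**Figure D3:**
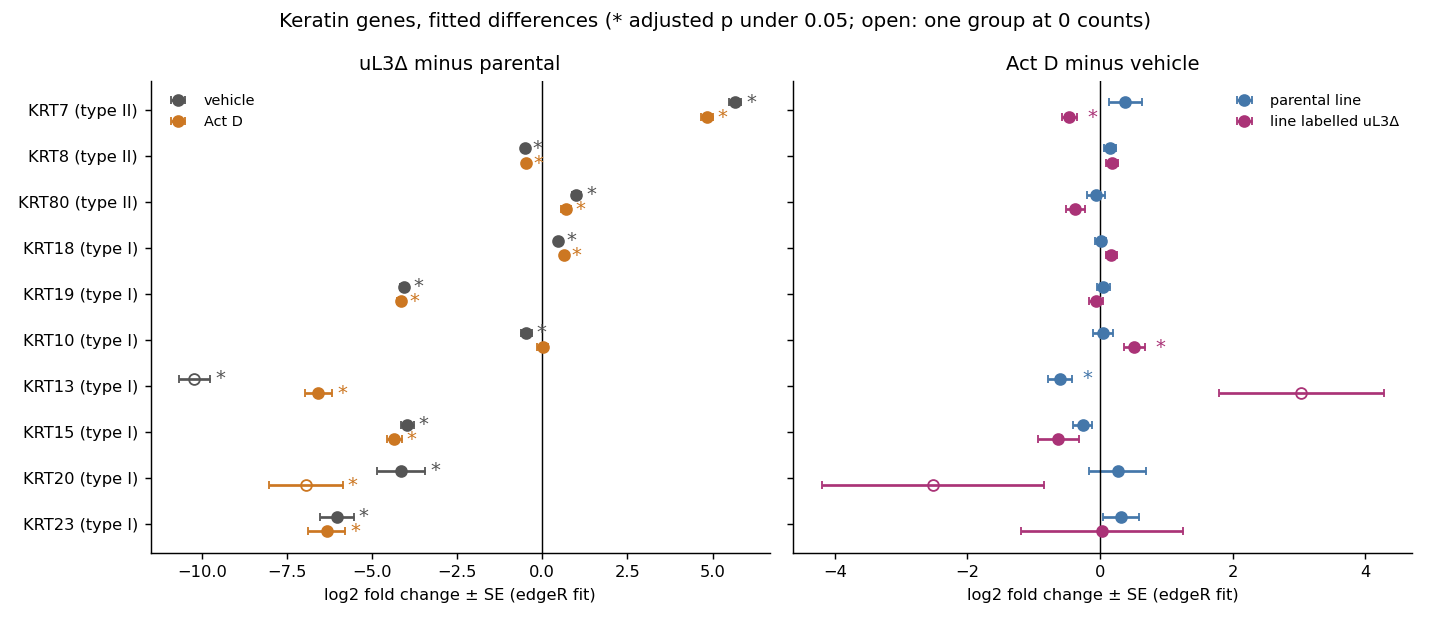
Fitted log2 fold changes with their SE for the 10 keratin genes, between lines within each treatment (left) and between Act D and vehicle within each line (right), with different horizontal scales. Asterisks mark an adjusted p under 0.05 and open points a comparison with 1 group at 0 counts, whose fitted value is no bound. On the left 19 points carry an asterisk, on the right 3.

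The comparison of Act D with vehicle asked how each line's keratins responded to inhibition of rRNA synthesis. In the parental line 1 of 10 keratins was called, against 18.7% of all genes tested (7.59% higher and 11.1% lower), and 4 keratins had groups that do not overlap, against 38.2% of all genes. The keratin called was KRT13, which fell from 10.2, 11.4 and 10.2 CPM to 7.04, 6.63 and 7.32 CPM (log2 fold change -0.60, SE 0.18, adjusted p = 0.0263). All 3 Act D libraries were below all 3 vehicle libraries. The call was lost when any 1 of these 6 libraries was left out, with adjusted p between 0.0597 and 0.112 and log2 fold changes between -0.63 and -0.55. KRT15, KRT8 and KRT23 were the other keratins without overlap. KRT15 had means of 23.0 and 19.2 CPM (log2 fold change -0.26, SE 0.14, adjusted p = 0.224), KRT8 of 1117 and 1237 (0.15, SE 0.09, adjusted p = 0.285) and KRT23 of 4.73 and 5.92 (0.32, SE 0.27, adjusted p = 0.457). The other keratins had log2 fold changes between -0.06 and 0.38 with overlapping groups, among them KRT18 at 0.01 (SE 0.08) and KRT19 at 0.05 (SE 0.10).

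In the libraries labelled uL3Δ, 2 keratins were called after Act D, 1 lower and 1 higher, against 11.9% of all genes tested (3.51% higher and 8.4% lower). Groups did not overlap for 3 keratins and for 27.6% of all genes. KRT7 fell from 125, 101 and 92.7 CPM to 84.8, 67.8 and 77.9 CPM (log2 fold change -0.46, SE 0.12, adjusted p = 0.0214). All 3 Act D libraries were below the vehicle libraries. The call was lost without vehicle replicate 1 of that line, its highest library (adjusted p = 0.0937), and without Act D replicate 2, its lowest (adjusted p = 0.078). KRT10 rose from 6.27, 8.51 and 8.78 CPM to 11.6, 10.6 and 11.8 CPM (log2 fold change 0.52, SE 0.16, adjusted p = 0.045). This call was lost with library size alone (adjusted p = 0.12), without a filter (0.0709), with only the groups compared (0.0731) and with the replicate number as a block (0.0504). It was also lost without any 1 of the 3 Act D libraries of that line (adjusted p = 0.0718 to 0.136), without its vehicle replicate 1 or 2 (0.163 and 0.0588), without parental vehicle replicate 1 (0.054) and without parental Act D replicate 2 or 3 (0.0553 and 0.0632). KRT80 had means of 16.1 CPM ± 0.886 and 12.4 ± 1.16 (SD, n = 3) without overlap (log2 fold change -0.37, SE 0.14, adjusted p = 0.0927). KRT8 and KRT18, the main pair, had log2 fold changes of 0.18 (SE 0.09, adjusted p = 0.237) and 0.17 (SE 0.08, adjusted p = 0.16) with overlapping groups. KRT19 was at 36.6 CPM ± 1.61 and 34.9 ± 6.58 (SD, n = 3). KRT13, KRT20 and KRT23 had at most 3 counts over a group, so no change could be measured in this line.

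No keratin was called for a difference between the lines in the response to Act D, against 6.53% of all genes tested (3.3% with a more positive and 3.23% with a more negative response in the libraries labelled uL3Δ). With edgeR's quasi-likelihood test 3 keratins had an unadjusted p under 0.05, KRT7 (0.00717), KRT10 (0.0461) and KRT13 (0.0289), and 1 keratin was called with DESeq2. In the libraries labelled uL3Δ, KRT13 had 0 counts in each with vehicle and 1, 0 and 1 with Act D. Its value there is no measured response. For KRT7 the difference of responses was -0.84 on the log2 scale (SE 0.28, adjusted p = 0.0791), from a response of 0.38 (SE 0.25) in the parental line and -0.46 (SE 0.12) in the libraries labelled uL3Δ. It was called without replicate 2 of the parental line with vehicle (adjusted p = 0.0293), the library with the highest KRT7 level of its group. The parental KRT7 mean went from 2.09 to 2.68 CPM with Act D. After Act D in that line, 5 of the 6 genes chosen earlier as high in the uL3Δ libraries were called higher. Of all genes tested, 7.59% were called higher there. What part the rise of such genes had in the KRT7 difference was not tested. For KRT8 the difference of responses was 0.03 (SE 0.13) and for KRT18 0.16 (SE 0.11), with adjusted p = 0.935 and 0.422.

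Within each library the keratins form a composition that does not depend on scaling between libraries. KRT19 made up 47.8% ± 2.18 (SD, n = 3) of type I keratin TPM in the parental line with vehicle and 4.20% ± 0.131 in the libraries labelled uL3Δ. KRT18 made up 46.4% ± 1.81 and 93.8% ± 0.234. The pool thus went from 2 near-equal type I keratins to nearly KRT18 alone. Of type II keratin TPM, KRT8 held 98.6% ± 0.306 and 76.0% ± 0.533, while KRT7 held 0.724% ± 0.413 and 22.8% ± 0.584. The KRT7 share rests on how RSEM divided reads between transcripts, known for 1 parental library only. There 44.4% of KRT7 TPM lay in a fragment of 329 bases, which raises its TPM relative to its counts. After Act D the KRT7 share was 0.767% ± 0.255 and 16.5% ± 0.921.

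**Figure D4:**
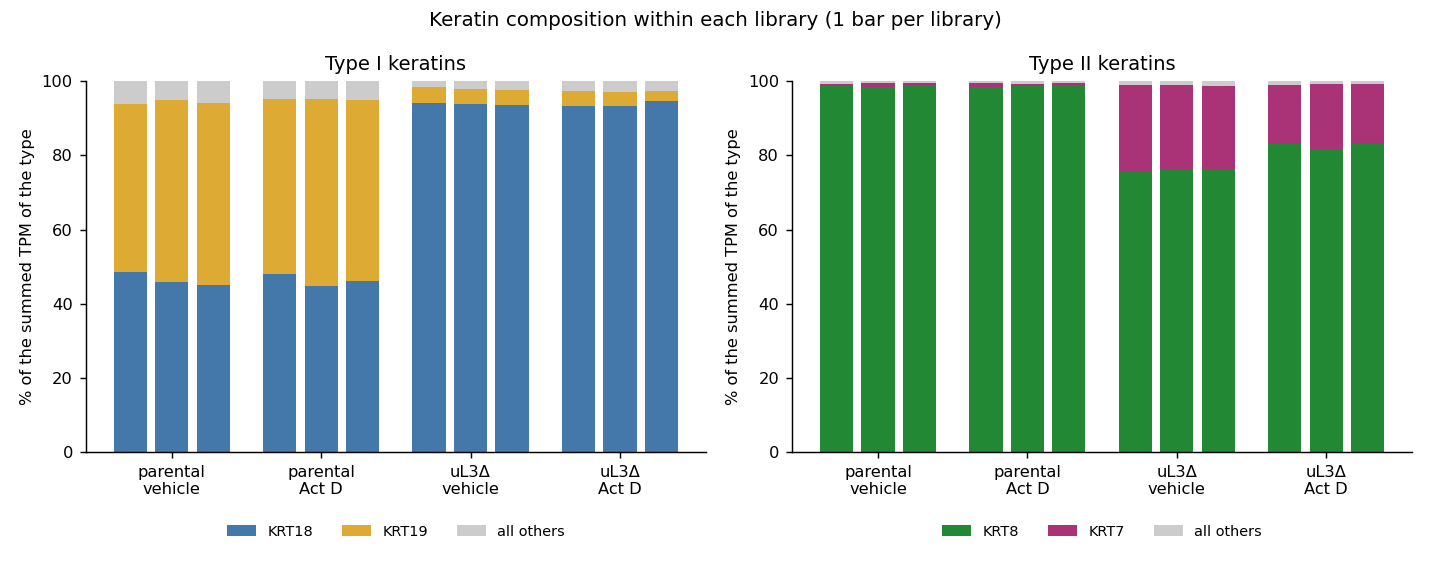
Share of the summed TPM of type I keratins (left) and type II keratins (right) held by the named genes, with 1 bar for each of the 12 libraries. KRT19 takes 47.8% of type I TPM in the parental line with vehicle and 4.20% in the libraries labelled uL3Δ, and KRT7 takes 0.724% and 22.8% of type II TPM.

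The ratio of KRT8 to KRT18, the partners of the simple epithelial filament, was 1.35 ± 0.0958 (SD, n = 3) in TPM in the parental line with vehicle and 0.678 ± 0.0375 in the libraries labelled uL3Δ. With Act D it was 1.48 ± 0.0328 and 0.681 ± 0.0393. The groups did not overlap with either treatment, and the exact two-sided permutation test gave p = 0.1 each time, the smallest that 3 against 3 libraries allow. Summed type I over summed type II TPM was 1.58 ± 0.0553 with vehicle and 1.44 ± 0.0569 with Act D in the parental line, and 1.198 ± 0.0746 and 1.30 ± 0.0661 in the libraries labelled uL3Δ. These groups did not overlap between lines either (exact permutation p = 0.1 in both, the smallest possible). Summed type I TPM went from 779.5 ± 26.4 to 379 ± 34.3 between the lines with vehicle, and summed type II TPM from 493 ± 0.814 to 318 ± 49.1. The median gene had a log2 TPM ratio of -0.46 in that comparison, so these sums fall in part with the scale.

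The rest of the family was low. Of 21 other type I keratins 3 passed the filter on low counts and all 3 were lower in the uL3Δ libraries without Act D. Of 23 other type II keratins 4 passed, 2 higher and 1 lower, where 36.2% of all genes tested were lower and 35.1% higher. Named after their values were seen, the lower ones were KRT14, KRT16, KRT32 and KRT6A and the higher ones KRT4 and KRT86. None reached a mean of 5 CPM in any group, so a gene could pass the filter only through the line where it was high. Their directions therefore cannot be read as a result for the family. The highest was KRT32, a hair keratin, at 4.44 CPM in the parental line with Act D and 0.0381 CPM in the libraries labelled uL3Δ with Act D. With Act D against vehicle none of these 7 was called in either line.

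Most genes that anchor keratin filaments were lower in the libraries labelled uL3Δ. Of 17 listed linker and desmosome genes 15 were tested, and with vehicle 13 were lower and 1 higher (median log2 fold change -1.71), against 36.2% and 35.1% of all genes tested. The largest decreases were of DSC3, a desmosomal cadherin (8.78 to 0.195 CPM, log2 fold change -5.46, SE 0.33, adjusted p = 7e-11), of EPPK1, epiplakin, a keratin-binding plakin (41.1 to 2.60 CPM, -4.05, SE 0.26, adjusted p = 1.51e-10), and of FAM83H, a keratin-associated protein (187 to 13.9 CPM, -3.77, SE 0.18, adjusted p = 2.64e-12). The gene called higher was DST, a plakin that links intermediate filaments to hemidesmosomes (253 to 408 CPM, log2 fold change 0.69, SE 0.09, adjusted p = 1.44e-06). With Act D 12 were lower and 2 higher. Act D against vehicle gave 1 higher and 4 lower in the parental line, and 1 higher and 3 lower in the other, where 18.7% and 11.9% of all genes tested were called.

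Of 15 other intermediate filament genes 9 were tested, and 4 were higher and 2 lower with vehicle (median log2 fold change 0.35), as with Act D, where 71.3% and 70.4% of all genes tested were called. VIM, the mesenchymal filament protein vimentin, went from 22.0 to 2237 CPM (log2 fold change 6.67, SE 0.20, adjusted p = 5.1e-15), above KRT8 and KRT18 in the same libraries on this scale, which is not per length. NES, nestin, went from 17.2 to 93.1 CPM (2.44, SE 0.09, adjusted p = 8.9e-14), and BFSP1, a beaded filament protein of the lens, from 5.09 to 0.911 CPM (-2.45, SE 0.26, adjusted p = 1.73e-07). Among 22 regulators of epithelial genes 15 were tested, 7 higher and 7 lower with vehicle (median -0.38) and again with Act D, beside the same 71.3% and 70.4% of all genes. Act D against vehicle gave 2 higher and 1 lower of the regulators in the parental line and 1 higher in the other, and of the filament genes 1 higher and 2 lower, and 2 higher and 1 lower, beside 18.7% and 11.9% of all genes. SNAI2 and ZEB1, repressors of epithelial genes, went from 0.279 to 32.1 CPM (log2 fold change 6.80) and from 1.66 to 24.96 CPM (3.91), and GRHL1, an epithelial transcription factor, from 2.91 to 7.04 CPM (1.29). GRHL2, an activator of epithelial genes, went from 26.8 to 0.0892 CPM (-7.87), ESRP2, an epithelial splicing factor, from 55.7 to 0.272 CPM (-7.72), and OVOL1, an epithelial transcription factor, from 10.5 to 0.13 CPM (-6.51). CDX2, the intestinal homeobox factor, went from 14.8 to 0.177 CPM (-6.37, SE 0.29, adjusted p = 1.11e-12) and was named after its values were seen, for the sequences that follow.

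RefSeq promoter windows (250 bases before to 50 after the start, GRCh38.p14) were at hand for 3 of the 10 genes, KRT8, KRT10 and KRT20. The KRT8 window starts at another site (chr12, 52926469) than the transcript that held its reads (52906618) and is not shown. The 250 bases before the start of the other pair are shown, since KRT20 and CDX2 were both near 0 in the libraries labelled uL3Δ while KRT10 kept counts in every library of both lines. KRT13 and KRT23 were near 0 in the libraries labelled uL3Δ too, without windows at hand. KRT20 was also low in the parental line, at 0.643 to 1.49 CPM. Any link of CDX2 to these genes was not tested. Capitals mark TATAAA, the TATA box sequence, and TTTAT, the core bound by CDX factors, on either strand. The reverse of TTTAT is ATAAA, which lies within TATAAA, so that the 2 searches overlap.
KRT20 (chr17:40885243-40885492, minus strand): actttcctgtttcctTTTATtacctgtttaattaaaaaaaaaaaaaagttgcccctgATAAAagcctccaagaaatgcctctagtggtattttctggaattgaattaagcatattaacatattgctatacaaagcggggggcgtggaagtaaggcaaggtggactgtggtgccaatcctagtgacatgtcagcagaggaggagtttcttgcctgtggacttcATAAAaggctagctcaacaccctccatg
KRT10 (chr17:40822615-40822864, minus strand): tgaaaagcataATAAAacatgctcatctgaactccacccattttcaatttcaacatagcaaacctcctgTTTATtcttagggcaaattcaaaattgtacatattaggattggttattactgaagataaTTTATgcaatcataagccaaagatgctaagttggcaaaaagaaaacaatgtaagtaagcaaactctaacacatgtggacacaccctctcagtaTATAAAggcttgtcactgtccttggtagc
KRT20 holds TTTAT 3 times on either strand, the nearest 28 bases before the start and read as ATAAA, and no TATAAA. KRT10 holds TTTAT 4 times and TATAAA once, 29 bases before its start. TTTAT occurs on either strand in 34.9% and TATAAA in 11.5% of the 35116 promoter windows of 300 bases.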

How the data were processed

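RNA-seq of 12 libraries was analysed, 3 in each of 4 groups taken from the sample labels. According to the paper's methods and the submitters' processing notes, the authors trimmed the reads, discarded those of ribosomal RNA and contaminants, and ran RSEM 1.2.25 against Ensembl transcripts on hg38. They deposited expected counts, which are fractional because shared reads are divided, together with TPM and a posterior standard deviation of each count. For 1 library (parental line, vehicle, replicate 2) the deposited values are per transcript, with each transcript's percent of its gene's TPM, and were summed per gene. Whether counting used strand is not given in the sources used here. The FPKM and confidence interval columns were not used.

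Counts were rounded and filtered with filterByExpr by group, which left 15692 of 33990 genes with any count. Library sizes were scaled by TMM (factors 0.847 to 1.15), and all libraries were fitted in one edgeR 4.0.16 model with a coefficient per group and the quasi-likelihood test. P-values were adjusted by the Benjamini-Hochberg method over all genes tested and called under 0.05. Floors are 3 counts per library and intervals are exact at 95%. Totals per library are given with the levels. Gene names came from GENCODE v44, which matched 60261 of 60617 identifiers. R 4.3.3, Python 3.11, Biopython 1.88 (alignments) and scipy 1.17.1 (permutation tests) were used. The tests were also run on simulated counts with the same dispersion (0.0117) for every gene and few changed genes. In the data 71.3% of genes were called between lines with vehicle, so that run does not measure error rates here.

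Named genes were the 10 keratins, other keratins reaching 5 CPM, the 3 KRT8 and KRT18 pseudogenes with the most counts, and, of the other lists, up to 3 genes per direction with the largest change between lines with vehicle among those called, at 5 CPM or more in one group and without overlap. Other keratins called between lines, and CDX2, were named after their values were seen. The keratins, the lists and this rule were chosen with earlier results of these data known. Same-numbered libraries did not deviate together, since correlations of their deviations were -0.1 to 0.1 and 0 of 3 pairs exceeded 0.1 in each comparison. The alternatives are given in the closing section. A list of 6 genes high in one line and 3 (with MYC) high in the other served as a reference for low levels. The coding sequences of KRT8, KRT18 and their pseudogenes are not reported here.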

Additional observations from a re-analysis of the deposited data

How the results depend on the processing

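Each keratin value was recomputed with library size alone or the upper quartile in place of TMM, DESeq2 1.42.0, edgeR's likelihood-ratio test, every gene with any count kept, genes kept at 1 CPM in 3 libraries, only the groups compared in the fit, pseudogenes added, the replicate number as a block, and each library left out in turn. Of 1032 such values 973 kept their direction and their side of the threshold, 23 lost a call, 5 gained one and 31 changed sign. TPM in place of scaled counts, added after the data were seen and without a test, kept the sign of 30 of 36 values. The counts of called keratins between lines changed by less than 1.5 times under every alternative, and no called keratin changed sign except KRT18 in TPM.

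Act D in the parental line gave 0 to 1 called keratins when a library was left out, in the libraries labelled uL3Δ 0 to 2, and the difference of responses 0 to 1. In the libraries labelled uL3Δ the count was 1 with library size alone, without a filter and with only the groups compared, as KRT10 was lost (adjusted p = 0.12, 0.0709 and 0.0731). For the difference of responses it was 1 with DESeq2, the likelihood-ratio test and no filter (KRT7, adjusted p = 0.0228, 0.0262 and 0.00857). KRT18 was called after Act D in the libraries labelled uL3Δ with the upper quartile (0.24, adjusted p = 0.0482). The cause of these changes was not tested.

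The replicate number pairs no libraries by the check described with the processing. With it as a block, 0 keratins were called for Act D in the parental line (KRT13, adjusted p = 0.0545) and 1 in the libraries labelled uL3Δ (KRT10, adjusted p = 0.0504), and it changed no other call. Calls over all genes fell from 2939 to 2469 and from 1869 to 1502. Over all genes, counts moved by more than 1.5 times only with a library left out, from 2939 to 1833 and 1949 for Act D in the parental line (without its Act D replicate 1 or 2), and for the difference of responses from 1025 to 614, 630 and 669 (without uL3Δ Act D replicate 1 and parental Act D replicates 1 and 2).

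KRT23 in the libraries labelled uL3Δ rests on 2 to 3 counts over a group. In the fit reported, the values that changed sign lay between -0.29 (KRT23, difference of responses) and 0.47 (KRT18 between lines with vehicle, the only one called). With library size alone they were, on the log2 scale, -0.23 for KRT10 between lines with Act D, -0.06, -0.09 and -0.05 for KRT10, KRT18 and KRT19 after Act D in the parental line, and -0.05 for KRT23 after Act D in the libraries labelled uL3Δ. This scaling moved the median gene by -0.24 between lines. With the upper quartile KRT19 after Act D in the libraries labelled uL3Δ was 0.01. Without a filter KRT10 between lines with Act D was -0.02, KRT23 after Act D in the libraries labelled uL3Δ -0.02 and the KRT8 difference of responses -0.01. In TPM the values were -0.03 for KRT18 between lines with vehicle, -0.42 for KRT10 between lines with Act D, -0.1, -0.05 and -0.01 for KRT10, KRT18 and KRT19 after Act D in the parental line, and -0.74 for KRT23 in the other. On that scale the median gene had ratios of -0.46 and -0.47 between lines with vehicle and with Act D. With a library left out, values ranged from -0.11 to 0.08 for KRT10 between lines with Act D. After Act D in the parental line they ranged from -0.07 to 0.16 for KRT10, -0.02 to 0.04 for KRT18, -0.01 to 0.1 for KRT19, -0.05 to 0.53 for KRT20 and -0.17 to 0.06 for KRT80. After Act D in the libraries labelled uL3Δ they ranged from -0.22 to 0.03 for KRT19 and from -3.06 to 0.78 for KRT23. For the difference of responses they ranged from -0.06 to 0.08 for KRT8 and from -3.39 to 0.45 for KRT23.

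DESeq2 gave no adjusted p for KRT20 after Act D or for KRT20 and KRT23 in the difference of responses. With only the groups compared, KRT20 between lines with Act D and KRT13, KRT20 and KRT23 after Act D in the libraries labelled uL3Δ fell below the filter. Depth limits KRT13, KRT20 and KRT23, which had at most 3 counts per group in one line.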
